A study of Mus musculus with 10 samples.

Results

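tRNA-Glu and tRNA-Gln carry glutamate and glutamine to the ribosome, and each amino acid has 2 anticodons in the mouse nucleus. The fragments of these 4 nuclear tRNAs, tRNA-Glu-CTC, tRNA-Glu-TTC, tRNA-Gln-CTG and tRNA-Gln-TTG, were followed here in mature spermatozoa of C57BL/6J males. They are 4 of the 51 nuclear tRNA anticodons with a mean of at least 100 reads, and they held between 3.21% and 8.25% of the reads of all nuclear tRNAs in a library, with a median of 4.08%. The 4 tRNAs were chosen by their names, with the read counts and the diet comparison of these libraries already known. Each tRNA was divided into 4 features, the reads that begin at the 5′ end of the mature tRNA, those at the 3′ end, those that reach the CCA end, and the remaining reads, called internal. This gave 16 features of 1468 in the whole data set.

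The sperm had been collected from the tail of the epididymis and the vas deferens. There were 5 CD-F0 samples, from males given a control diet with 10% of kcal as fat, and 5 HFD-F0 samples, from males given a diet with 42% of kcal as fat, both from 4 weeks of age. All animals were of one strain, and the labels name no engineered allele. The labels do not say whether a sample is 1 mouse or a pool, so the p-values measure the spread between these samples. The study asked which sperm small RNAs differ between fathers on these diets.

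A tRNA is folded into a cloverleaf with the anticodon in the middle of the chain and the amino acid on the last base of the CCA tail, which an enzyme adds after transcription because it is not encoded in the mouse tRNA genes. Ribonucleases such as angiogenin cut the anticodon loop of mature tRNAs and leave 5′ and 3′ fragments. Fragments of this kind, called tsRNAs, are abundant in mature sperm, and 5′ fragments of tRNA-Glu and tRNA-Gly are among those long known there. Sperm acquires part of its tsRNAs during passage through the epididymis, from vesicles shed by the epithelium.

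RefSeq (GRCm38.p6, the assembly of the mm10 build named in the labels) listed 12 genes for tRNA-Glu-CTC on 8 chromosomes, 8 for tRNA-Glu-TTC on 6, 10 for tRNA-Gln-CTG on 4 and 6 for tRNA-Gln-TTG on 3. Each of these 36 genes spans 72 bases, so the 4 tRNAs do not differ in gene length. Other differences in how well their fragments are captured and counted were not measured. Against the genes of either strand in the GENCODE M21 annotation, 27 of them lay between annotated genes and 8 in introns, and 1, a tRNA-Gln-TTG gene at chr11:95859172-95859243, overlapped exons of the non-coding genes 4833417C18Rik and Gm11527. Of the tRNA-Glu-CTC genes, 4 lay on chromosome 1 between 171064164 and 171103114, of which n-TEctc5 at chr1:171064164-171064235 was in an intron of Fcgr3, an Fc receptor gene. A group on chromosome 3 between 96341156 and 97681530 held genes of 3 of the tRNAs, with 4 for tRNA-Gln-CTG and 2 each for tRNA-Glu-CTC and tRNA-Glu-TTC. Chromosome 13 held genes for all 4 tRNAs. The read counts are given by anticodon, so which of the genes a fragment came from was not analysed here.

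The libraries were deep and even, with 29558751 to 32178088 clean reads, and 22.6% to 27.4% of the clean reads came from nuclear tRNAs. Replicate 1 of both groups stood apart. CD-F0 replicate 1 had 36.9% of its clean reads in rRNA and HFD-F0 replicate 1 had 29.9%, against 25.2% to 30.5% in the other CD-F0 samples and 24.3% to 25.8% in the other HFD-F0 samples. Among 49 nuclear tRNA 5′ ends with a mean of at least 100 reads, CD-F0 replicate 1 was the lowest of its group for 21 and HFD-F0 replicate 1 for 28. For many of the values that moved when these libraries were left out, the value without them follows. A range, rank or p-value given alone can also depend on them. Leaving out both is an alternative added after seeing the data. All 12 microRNAs of a sperm and male germ line marker list were above 0 in every sample. Their summed level ran from 13374 to 16220 reads per 1000000 clean reads (RPM) in the CD-F0 group and lay between 9663 and 19207 in HFD-F0. Markers of other cell types were present as well. The 6 microRNAs of the epididymal epithelium summed to 3969 to 6756 RPM in CD-F0 and 5520 to 9463 in HFD-F0, the 7 of smooth and other muscle to 21354 to 29469 and 15881 to 36545, and 6 of 7 listed blood and immune microRNAs to 3635 to 5446 and 3127 to 5899. The part of these cells in the tRNA fragment levels was not tested, and in a bulk library a change in their number and a change in RNA per cell cannot be told apart.

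The 5′ end of tRNA-Glu-CTC was the most uneven of the 16 features between samples. It was the most abundant of them in 4 of the 10 samples, while the internal reads of the same tRNA were so in 5, with a median level of 2337 RPM against 2088 RPM for the 5′ end. In the CD-F0 group its level was 154.5, 1874, 2175, 1118 and 4147 RPM in replicates 1 to 5. In the HFD-F0 group it was 208.9, 8476, 2870, 9319 and 2002 RPM. Replicate 1 was the lowest sample of both groups by a wide margin, HFD-F0 replicates 2 and 4 lay above every CD-F0 sample, and the remaining HFD-F0 samples lay inside the CD-F0 range. The highest sample of all was 60.3-fold above the lowest, and 8.33-fold with both replicates 1 left out. The means were 1894 ± 1482 RPM (SD, n = 5) in CD-F0 and 4575 ± 4072 RPM (SD, n = 5) in HFD-F0. In the fit across all features with edgeR's quasi-likelihood test the log2 fold change was 1.27 with a standard error of 0.88 (adjusted p = 0.654), so that the difference was not larger than the spread between samples. Counting error was small beside that spread, as the lowest sample held 4702 reads, with a Wilson 95% interval of 150.2 to 159.0 RPM. With both replicates 1 left out, a choice made after seeing the data, the log2 fold change was again 1.27, with an unadjusted p of 0.0460 and an adjusted p of 0.309 in the same edgeR test.

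The 5′ end of tRNA-Glu-TTC followed a similar order of samples over a narrower range. Its level was 778, 1547, 1318, 1161 and 1966 RPM in the CD-F0 replicates and 613, 3300, 1881, 3755 and 1960 RPM in the HFD-F0 replicates. Again replicate 1 was lowest in both groups and HFD-F0 replicates 2 and 4 were highest, with the other samples overlapping. The means were 1354 ± 442 and 2302 ± 1250 RPM (SD, n = 5 each), with a log2 fold change of 0.73 and a standard error of 0.42 (edgeR, adjusted p = 0.572). The unadjusted p was 0.110 with all 10 samples and depended on which replicate 1 was left out (edgeR). Without HFD-F0 replicate 1 the log2 fold change was 0.95 with an unadjusted p of 0.00575 and an adjusted p of 0.183. Without CD-F0 replicate 1 it was 0.61 with 0.205 and 0.650, and without both replicates 1 it was 0.84 with 0.0116 and 0.252 (edgeR). Added up as reads of tRNA-Glu, which removes any division of shared reads between its anticodons, the 5′ ends reached 933 to 6113 RPM in CD-F0 and 822 to 13073 RPM in HFD-F0. Their share of all nuclear 5′ end reads was lowest in CD-F0 replicate 1, at 0.523%, and HFD-F0 replicate 1, at 0.491%, and highest in HFD-F0 replicates 2 and 4, at 6.72% and 6.91%.

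The 5′ ends of the tRNA-Gln pair were lower and far more even. For tRNA-Gln-CTG the level was 400.3, 549.9, 440.2, 521 and 685 RPM in the CD-F0 group and 270.6, 532, 526, 489.9 and 619 RPM in the HFD-F0 group. The groups overlapped throughout apart from HFD-F0 replicate 1, which was the lowest of all 10 samples. The log2 fold change was -0.15 with a standard error of 0.25 (edgeR, adjusted p = 0.914). For tRNA-Gln-TTG the level was 141.9, 176.2, 142.3, 149.3 and 229.8 RPM in the CD-F0 group and 95.6, 172.0, 169.4, 166.9 and 219.6 RPM in the HFD-F0 group. HFD-F0 replicate 1 was once more the lowest and replicate 5 the highest of each group. The log2 fold change was -0.09 with a standard error of 0.25 (edgeR, adjusted p = 0.941).

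**Figure D1:**
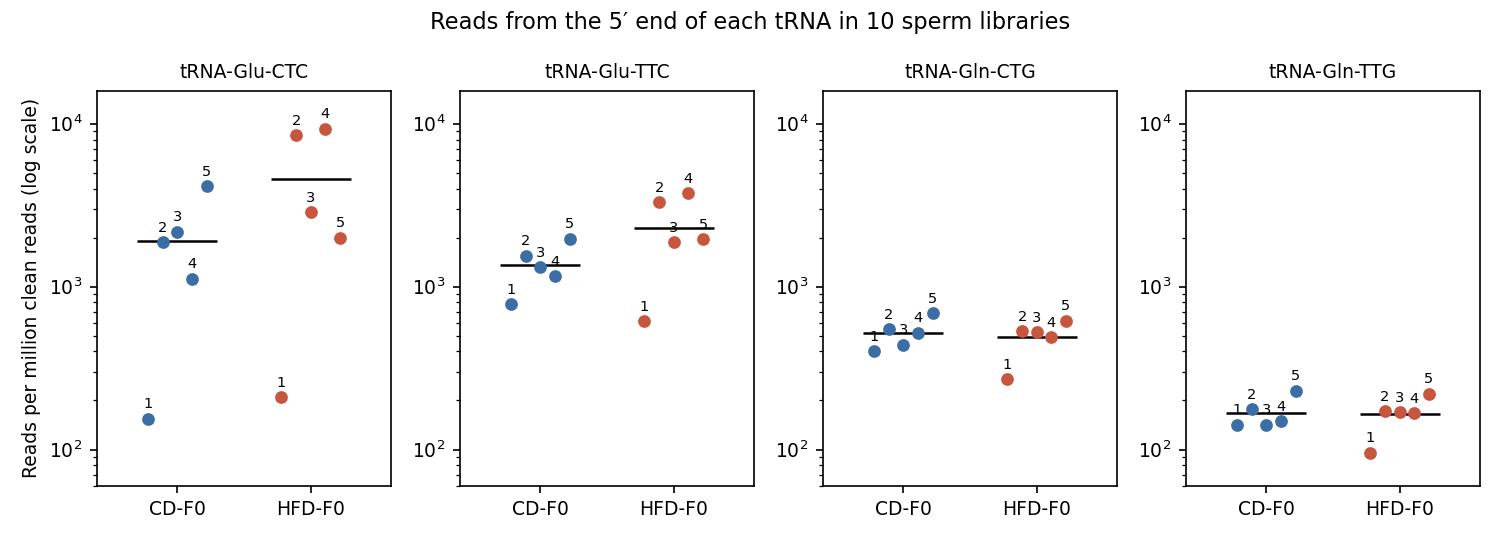
Level of the 5′ end reads of each tRNA in RPM (vertical axis, log scale) in the 5 CD-F0 and 5 HFD-F0 samples. Points are samples with their replicate number and bars are group means. The tRNA-Glu-CTC points run from 154.5 to 9319 with replicate 1 lowest in both groups, while those of tRNA-Gln-CTG stay between 270.6 and 685.

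Internal reads, which span neither end, did not follow this pattern. For tRNA-Glu-CTC they were at 3422, 2516, 2252, 1904 and 1817 RPM in the CD-F0 replicates and 2422, 2222, 1829, 3433 and 3232 RPM in the HFD-F0 replicates. CD-F0 replicate 1, the lowest library for the 5′ end, was the highest of its group for internal reads, and HFD-F0 replicate 1 lay in the middle of its group. The log2 fold change was 0.05 with a standard error of 0.24 (edgeR, adjusted p = 0.991). Internal reads of tRNA-Glu-TTC had means of 2175 ± 459 RPM in CD-F0 and 2126 ± 238 RPM in HFD-F0 (SD, n = 5 each) and a log2 fold change of -0.13 with a standard error of 0.18. Those of tRNA-Gln-CTG had means of 871 ± 120 and 873 ± 195 RPM, and those of tRNA-Gln-TTG 296 ± 34.1 and 299.7 ± 55.9 RPM, with log2 fold changes of -0.11 (SE 0.16) and -0.09 (SE 0.15). The adjusted p-values of these 3 features ran from 0.907 to 0.914 in the edgeR fit, and in each of them the samples of the groups overlapped.

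The 5′ end and internal shares of each tRNA moved in opposite directions between samples. They must do so, since the 3′ and CCA ends held few of the reads. The levels themselves were less clearly mirrored in the 2 tRNAs compared, tRNA-Glu-CTC and tRNA-Gln-CTG. Pearson's r of log2 counts scaled to library size, between 5′ end and internal reads, was -0.102 for tRNA-Glu-CTC and -0.330 for tRNA-Gln-CTG. Without both replicates 1 it was 0.281 and -0.183. In 1 library the tRNA-Gln levels did go opposite ways. HFD-F0 replicate 1 was the lowest of all 10 samples at the 5′ end of tRNA-Gln-CTG (270.6 RPM) and tRNA-Gln-TTG (95.6 RPM). It was the highest for their internal reads, at 1141 and 377 RPM. For tRNA-Glu-CTC the 5′ end share of its reads was 4.30%, 42.4%, 48.8%, 36.7% and 69.2% in the CD-F0 replicates and 7.85%, 79.0%, 60.7%, 72.8% and 38.0% in the HFD-F0 replicates. In both replicates 1 nearly all reads were internal, at 95.2% and 91.0%, whereas in HFD-F0 replicate 2 only 20.7% were. The mean 5′ end share was 40.3% ± 23.6 in CD-F0 and 51.7% ± 29.1 in HFD-F0 (SD, n = 5 each; p = 0.516, exact permutation test, two-sided). This and the following exact tests cover all assignments of the 10 samples to groups of 5, the smallest p they can give is 0.00794, and adjusted p-values are over 254 comparisons, the levels and the 4 part shares of the 51 nuclear anticodons, without the 3′ end share of tRNA-Sup-TTA, for which no 3′ end reads were listed.

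For tRNA-Glu-TTC the 5′ end share was 21.8%, 37.4%, 39.1%, 39.1% and 51.3% in the CD-F0 group and 22.6%, 60.6%, 50.3%, 61.4% and 44.4% in the HFD-F0 group. It was lowest in both replicates 1, and the groups overlapped (p = 0.270, exact permutation test). For tRNA-Gln-CTG the share ran from 29.2% to 47.4% in CD-F0 and from 19.0% to 44.0% in HFD-F0 (p = 0.810, exact permutation test), and for tRNA-Gln-TTG from 28.6% to 46.0% and from 20.0% to 40.1% (p = 0.913, exact permutation test). In both tRNA-Gln species HFD-F0 replicate 1 was the lowest sample and CD-F0 replicate 5 the highest. By their median 5′ end share the 4 tRNAs lay close to each other in the middle of the 51 anticodons, at ranks 27, 29, 31 and 32 from the highest in the order tRNA-Glu-CTC, tRNA-Glu-TTC, tRNA-Gln-CTG and tRNA-Gln-TTG. The adjusted p of each 5′ end share was 1.

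**Figure D2:**
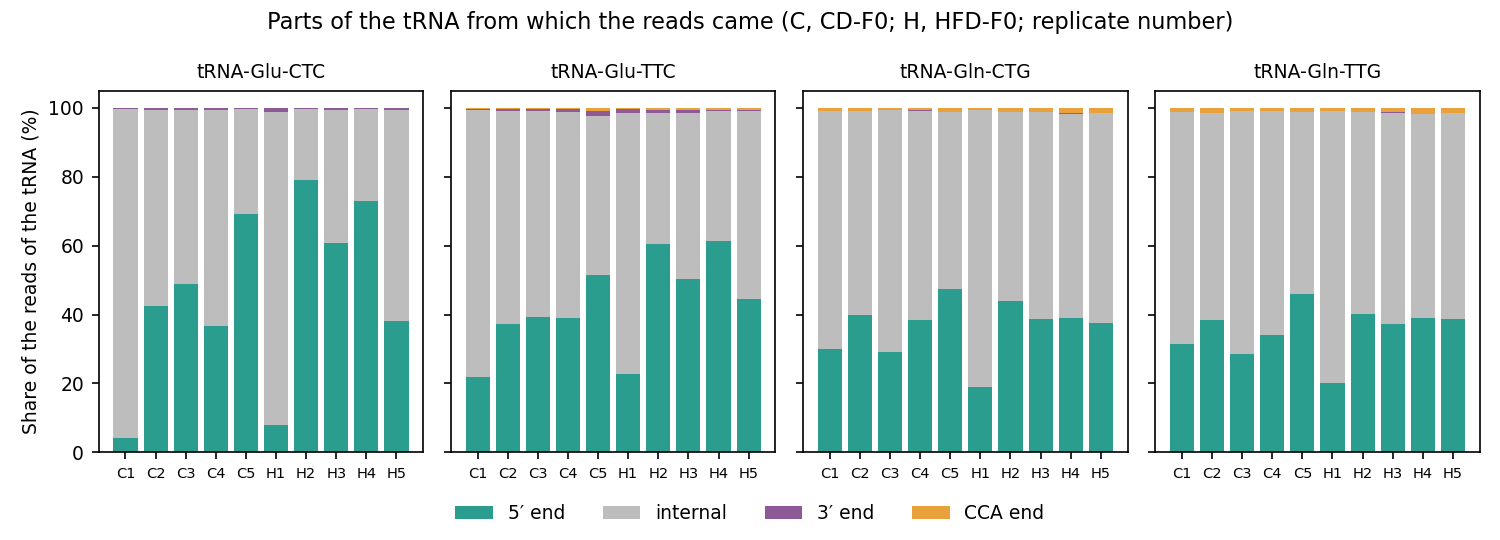
Share of the reads of each tRNA (vertical axis, %) that came from the 5′ end, the inside, the 3′ end and the CCA end, as 1 stacked bar per sample (C, CD-F0; H, HFD-F0). The 5′ end share of tRNA-Glu-CTC changes from 4.30% in C1 to 79.0% in H2, and the 3′ and CCA ends are thin caps on every bar.

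Whole-tRNA levels followed from these parts. tRNA-Glu-CTC had 3594, 4416, 4455, 3043 and 5992 RPM in the CD-F0 group and 2661, 10731, 4730, 12794 and 5268 RPM in the HFD-F0 group, so that the HFD-F0 mean was 1.68-fold the CD-F0 mean with 2 of the 5 HFD-F0 samples above the CD-F0 range (p = 0.246, adjusted p = 1, exact permutation test). tRNA-Glu-TTC had 2968 to 4139 RPM in CD-F0 and 2707 to 6115 RPM in HFD-F0, a ratio of means of 1.26 (p = 0.206, adjusted p = 1, exact permutation test). Without HFD-F0 replicate 1 the ratios were 1.95 (p = 0.0397, exact permutation test over 9 samples) and 1.38 (p = 0.0317, same exact test), both unadjusted. The 5′ end share of tRNA-Glu-TTC was then 16.4 percentage points higher in HFD-F0 (unadjusted p = 0.0476, same exact test). That library was the lowest HFD-F0 sample for both tRNAs, and these p-values were the smallest of the settings tried. Over those settings the unadjusted p of the exact tests reached 0.452, 0.413 and 0.937 in the same order. The ratios fell to 1.36 and 1.14. The levels of tRNA-Gln-CTG, 1404 ± 70.2 against 1379 ± 171 RPM, and of tRNA-Gln-TTG, 469 ± 28.0 against 470.7 ± 57.2 RPM (SD, n = 5 each), gave ratios of 0.982 and 1.004 (p = 0.770 and 0.992, exact permutation tests, adjusted p = 1). In mean level over the 10 samples the order was tRNA-Glu-CTC, tRNA-Glu-TTC, tRNA-Gln-CTG and tRNA-Gln-TTG, at ranks 16, 20, 31 and 45 of 51. tRNA-Glu-CTC and tRNA-Glu-TTC overlapped in their ranges, while every sample of tRNA-Gln-CTG, from 1209 to 1646 RPM, lay below every sample of tRNA-Glu-TTC and above every sample of tRNA-Gln-TTG, from 427.6 to 566.3 RPM.

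Reads that reach the CCA end carry the tail of a mature tRNA. They were few, between 0.0627% and 1.70% of the reads of each tRNA. The CCA end of tRNA-Glu-CTC was at 3.004, 2.92, 2.79, 2.04 and 4.69 RPM in the CD-F0 replicates and 5.54, 10.2, 6.94, 12.3 and 7.09 RPM in the HFD-F0 replicates. All 5 HFD-F0 samples were above all 5 CD-F0 samples, and HFD-F0 replicates 2 and 4 were again the highest. The means were 3.09 ± 0.971 and 8.41 ± 2.76 RPM (SD, n = 5 each), a ratio of 2.72, and the log2 fold change was 1.37 with a standard error of 0.30. This difference was known when the tRNAs were chosen and is a description. The values rest on 64 to 393 reads per sample, and at the point where the groups came closest the Wilson 95% intervals, which cover counting error only, were 4.00 to 5.52 RPM in CD-F0 replicate 5 and 4.77 to 6.41 RPM in HFD-F0 replicate 1. As a share of the tRNA-Glu-CTC reads the CCA end was 0.0715% ± 0.00890 in CD-F0 and 0.136% ± 0.0464 in HFD-F0 (SD, n = 5 each). These ranges did not overlap (adjusted p = 0.252, exact permutation test). The share rests on the same CCA reads, so it is a description too and not separate support. Of the 254 comparisons, 15 had an unadjusted p of at most 0.05 and 0 had an adjusted p under 0.05 in the exact tests.

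The CCA end of tRNA-Glu-TTC had more reads, and its groups overlapped. Its level was 10.7, 20.0, 12.1, 13.8 and 35.5 RPM in the CD-F0 group and 11.96, 32.2, 27.6, 37.1 and 29.1 RPM in the HFD-F0 group. HFD-F0 replicate 1 lay among the low CD-F0 samples, and CD-F0 replicate 5 lay among the high HFD-F0 samples. The log2 fold change was 0.53 with a standard error of 0.39 (edgeR, adjusted p = 0.675). Without CD-F0 replicate 5, the highest of its group, it was 0.89 with an unadjusted p of 0.0186 in the same edgeR test. Without CD-F0 replicate 1, the lowest of its group, it was 0.42 with an unadjusted p of 0.316 and an adjusted p of 0.768 (edgeR). With both anticodons added, the tRNA-Glu CCA ends ran from 13.7 to 40.2 RPM in CD-F0 and from 17.5 to 49.4 RPM in HFD-F0, with 2 of the 5 HFD-F0 samples above the highest CD-F0 sample. The separation of the groups at the CCA end of tRNA-Glu-CTC was thus not present in the sum, in which tRNA-Glu-CTC held the smaller part, at 0.132 to 0.464 reads for each tRNA-Glu-TTC read.

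For tRNA-Gln-CTG the CCA end was at 12.3, 13.4, 10.9, 10.0 and 16.6 RPM in the CD-F0 group and 9.36, 14.5, 16.2, 21.0 and 23.1 RPM in the HFD-F0 group. Replicates 4 and 5 of HFD-F0 were above the CD-F0 range and replicate 1 was below it. The log2 fold change was 0.35 with a standard error of 0.28 (edgeR, adjusted p = 0.702). Without HFD-F0 replicate 1 it was 0.49 with an unadjusted p of 0.0406 and an adjusted p of 0.325 (edgeR). Without CD-F0 replicate 1 it was 0.37 with 0.233 and 0.677, and without both replicates 1 it was 0.53 with 0.0364 and 0.309 (edgeR). The CCA end of tRNA-Gln-TTG ran from 3.71 to 6.48 RPM and from 4.07 to 8.01 RPM, with a log2 fold change of 0.17 and a standard error of 0.25 (edgeR, adjusted p = 0.907).

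The CCA reads of the 4 tRNAs differed in whether they matched the genome. Of the CCA reads of tRNA-Glu-TTC only 0.948% to 3.85% in a sample did, with a median of 1.77%, and of those of tRNA-Glu-CTC 10.9% to 30.6%, with a median of 21.7%. By contrast 68.2% to 92.8% of the tRNA-Gln-CTG and 91.7% to 99.5% of the tRNA-Gln-TTG CCA reads were in the genome-matched rows. All 5′ and 3′ end reads of the 4 tRNAs were genome-matched, as were at least 99.55% of the internal reads. The alignment allowed a mismatch, and the reads themselves were not analysed here.

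**Figure D3:**
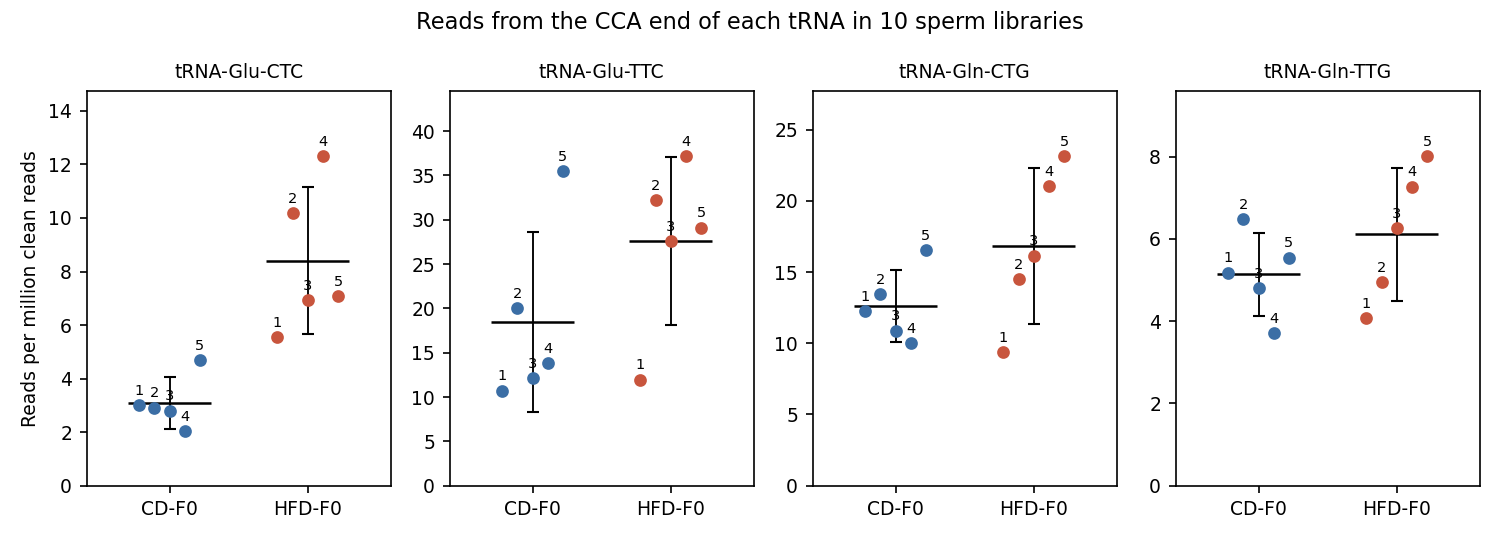
Level of the CCA end reads of each tRNA in RPM (vertical axis, a separate linear scale from 0 in each panel) in the 5 CD-F0 and 5 HFD-F0 samples. Points are samples with their replicate number, and bars with whiskers are means and SD. The groups are apart for tRNA-Glu-CTC, with 4.69 as the highest CD-F0 and 5.54 as the lowest HFD-F0 value, and overlap for the other tRNAs.

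Reads of the 3′ end without the tail outnumbered those of the CCA end in every sample for tRNA-Glu-CTC and were fewer than those in every sample for both tRNA-Gln forms. For tRNA-Glu-CTC they were at 14.95, 22.7, 24.5, 18.8 and 23.6 RPM in the CD-F0 group and 23.7, 22.4, 24.6, 30.2 and 27.9 RPM in the HFD-F0 group. These samples were close together, with 3 HFD-F0 samples above the CD-F0 range, and the log2 fold change was 0.22 with a standard error of 0.18 (edgeR, adjusted p = 0.727). For tRNA-Glu-TTC they ran from 11.01 to 53.1 RPM in CD-F0 and from 12.1 to 53.1 RPM in HFD-F0, with a log2 fold change of 0.03 and a standard error of 0.43 (edgeR, adjusted p = 0.991). For tRNA-Gln-CTG they ran from 0.753 to 1.38 RPM and from 0.387 to 1.65 RPM, with a log2 fold change of 0.04 and a standard error of 0.37 (edgeR, adjusted p = 0.991). tRNA-Gln-TTG had 4.61 to 14.0 estimated reads at its 3′ end in a library, and this feature did not pass the filter on low counts and was not tested.

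The fit covered 814 features, among them 15 of the 16 features of these tRNAs. At the study's thresholds, an unadjusted edgeR p of at most 0.05 and a log2 fold change of at least 1, 2.09% of all tested features were higher in HFD-F0 (17 of 814) and 1.6% were lower (13 of 814). Of the 15, the CCA end of tRNA-Glu-CTC was past these thresholds on the higher side and none on the lower side. Groups that did not overlap with HFD-F0 higher were found for 3.69% of all tested features (30 of 814) and for the same CCA end among the 15. Since that feature was known beforehand, nothing is read from these counts. After Benjamini-Hochberg adjustment over the 814 features, 0 of the 15 had an adjusted p under 0.05 with edgeR's quasi-likelihood test. The CCA end of tRNA-Glu-CTC alone had an unadjusted p under 0.05, with an adjusted p of 0.116 in that test. DESeq2 and edgeR's exact test each gave 1 adjusted p under 0.05, for the same CCA end. As it was known beforehand, these values are a description. The adjusted p-values of the 14 other features lay between 0.572 and 0.991. Their directions were mixed, as 10 of the 15 log2 fold changes were positive and 5 negative, with a median of 0.05, beside -0.01 over all 814.

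**Figure D4:**
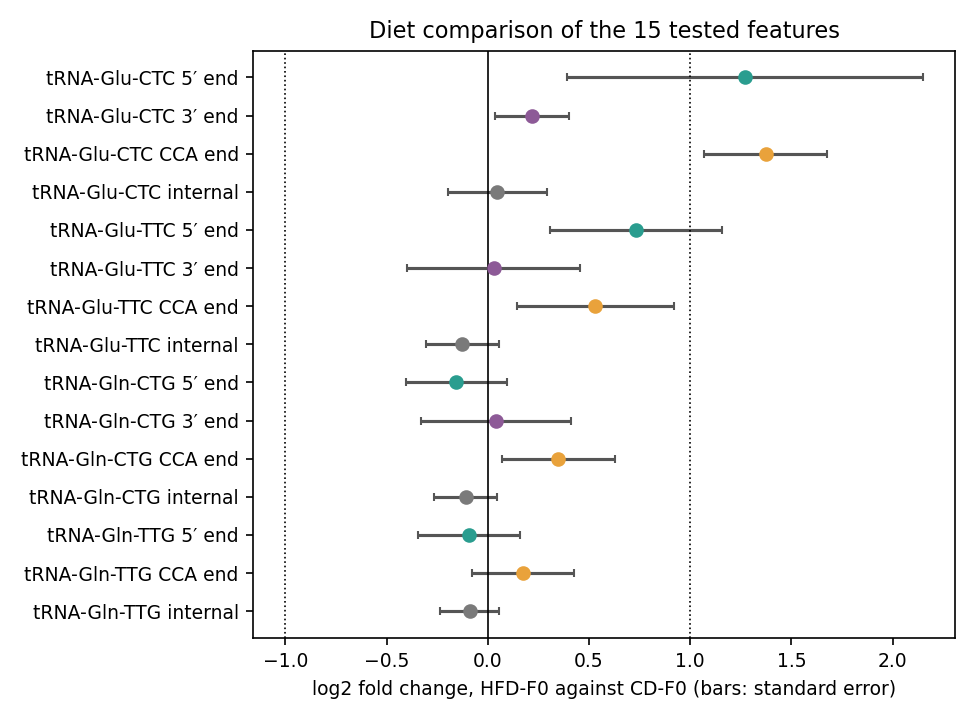
Log2 fold change of HFD-F0 against CD-F0 (horizontal axis) with its standard error for the 15 tested features, coloured by the part of the tRNA. Dotted lines mark the study's fold change threshold of 1 in both directions. Only the 5′ end (1.27) and the CCA end (1.37) of tRNA-Glu-CTC lie beyond it, and the standard error of the 5′ end spans the line.

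The division of reads between the 2 anticodons of an amino acid differed between the pairs. At the 5′ end the ratio of tRNA-Glu-CTC to tRNA-Glu-TTC was 0.198, 1.21, 1.65, 0.964 and 2.11 in the CD-F0 group and 0.341, 2.57, 1.53, 2.48 and 1.02 in the HFD-F0 group. The CTC form was thus the minor one in both replicates 1 and in CD-F0 replicate 4, and the ratio covered a 12.9-fold range, or 2.67-fold without both replicates 1. Inside the tRNA the same ratio stayed between 0.987 and 1.49. For tRNA-Gln the ratio of the CTG to the TTG form was 2.82 to 3.49 at the 5′ end and 2.63 to 3.02 inside, with little change between samples. Of the 240 rows of the 4 tRNAs, 236 were not whole numbers, so reads fitting several annotations had been divided among them. How far that division ran between the forms of 1 amino acid was not tested. These forms can thus not be taken as independent measurements.

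Set against other nuclear tRNA fragments, the 5′ end of tRNA-Glu-CTC had the largest spread. Its coefficient of variation within a group, averaged over both groups, was 83.6%, the highest of 177 nuclear tRNA features with a mean of at least 100 reads, ahead of the 5′ ends of tRNA-Thr-TGT (68.9%) and tRNA-Arg-TCT (64.7%). The median over 49 5′ ends was 24.6%. Without both replicates 1 it was 60.9% for tRNA-Glu-CTC, the third of the 177, around a median of 19.3% over the 5′ ends. The 5′ end of tRNA-Glu-TTC was the fifth of the 49 at 43.5%, and the eleventh at 29.1% without both replicates 1. Those of tRNA-Gln-TTG and tRNA-Gln-CTG were near the median at 24.6% and 24.0%. Without both replicates 1 they were at 18.3% and 14.4%, so that tRNA-Gln-CTG then lay under the median of 19.3%, at rank 30 of 49. At the 3′ end the pair of tRNA-Glu forms took opposite places, since tRNA-Glu-TTC had the highest value of 29 features, 54.7%, and tRNA-Glu-CTC the lowest, 15.7%. Without both replicates 1 these values were 53.2% and 12.2%, at ranks 1 and 26 of 29. Internal reads were steadier, with 26.5% for tRNA-Glu-CTC, 18.1% for tRNA-Gln-CTG, 16.2% for tRNA-Glu-TTC and 15.1% for tRNA-Gln-TTG, around a median of 20.8% over 51 features.

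**Figure D5:**
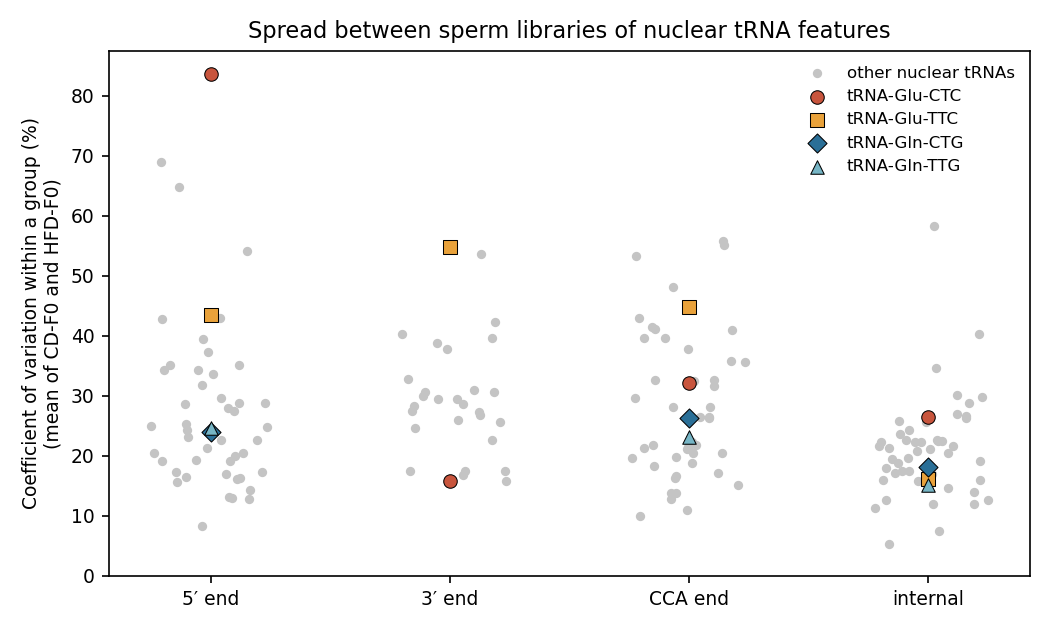
Coefficient of variation within a group (vertical axis, %, mean of CD-F0 and HFD-F0) of 177 nuclear tRNA features by the part of the tRNA. Grey points are other nuclear tRNAs and coloured marks the 4 tRNAs described. tRNA-Glu-CTC is the highest mark at the 5′ end (83.6%) and the lowest at the 3′ end (15.7%) with all 10 samples.

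The other features whose pattern over the 10 samples was most like that of the tRNA-Glu-CTC 5′ end, by Pearson's r of log2 counts scaled to library size among 496 features, were the 5′ ends of tRNA-Gly-GCC (r = 0.964), the mitochondrial tRNA-Cys-GCA (r = 0.935) and tRNA-Gly-CCC (r = 0.934). These values are descriptions, and the points share a library, its depth and its scaling factor. With both replicates 1 left out, r was 0.958, 0.720 and 0.883 over 8 samples. The tRNA-Gly-GCC 5′ end, itself a fragment long known from sperm, ran from 707 to 2929 RPM in CD-F0 and from 949 to 6192 RPM in HFD-F0. For the tRNA-Gln-CTG 5′ end the nearest features were the 3′ end of tRNA-Lys-TTT (r = 0.963), the internal reads of tRNA-Arg-TCG (r = 0.953) and the 5′ end of the initiator tRNA, tRNA-iMet-CAT (r = 0.948). Over the 8 samples without both replicates 1, r was 0.872, 0.949 and 0.755 in the same order. Within each pair the 5′ ends were close, with r = 0.946 for the forms of tRNA-Glu and 0.978 for those of tRNA-Gln. Between the pairs, tRNA-Glu-CTC and tRNA-Gln-CTG had r = 0.653 over 10 samples and 0.00522 without the replicates 1, so that their likeness rested on those libraries.

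The remaining nuclear tRNAs gave the setting for these values. Of 45 other 5′ ends tested, none passed the study's thresholds, 12 had a positive log2 fold change and the median was -0.13. Of 41 other 3′ ends, 2 were higher in HFD-F0 past the thresholds and the median was 0.20, and none of 45 other CCA ends (median 0.10) or 47 other sets of internal reads (median -0.05) passed. Among 8 5′ ends well known from sperm and stressed cells, those of tRNA-Gly-GCC, tRNA-Gly-CCC, tRNA-Val-CAC, tRNA-Val-AAC, tRNA-Lys-CTT, tRNA-Lys-TTT, tRNA-His-GTG and tRNA-Asp-GTC, none passed, and the values lay between -0.24 for tRNA-Val-AAC and 0.93 for tRNA-Gly-GCC. The mitochondrial tRNAs for the same amino acids are encoded in the mitochondrial genome and serve its own ribosomes. Mitochondrial tRNA-Gln-TTG was read mostly at its 5′ end, at 253 to 709 RPM in CD-F0 and 509 to 660 RPM in HFD-F0, with a log2 fold change of 0.31 and a standard error of 0.23 (edgeR, adjusted p = 0.675). Mitochondrial tRNA-Glu-TTC had few reads and most of them internal, at 12.2 to 27.3 RPM and 9.24 to 39.1 RPM, with a log2 fold change of 0.14 and a standard error of 0.36 (edgeR, adjusted p = 0.941).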

How the data were processed

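RNA of 10 mouse sperm samples was run on a gel, and only a band of short lengths was cut out and sequenced. Fragments longer than that band were largely left out, so the levels and shares given here describe the selected lengths only. Per the study's methods, the authors assigned clean reads with SPORTS, which runs Bowtie, to the genome and sets of small RNAs with a mismatch allowed, and deposited a summary per sample of estimated counts by RNA sub-class, split where a read had several matches, without normalization. Versions are not given in the sources used here, nor whether reads sharing a molecular identifier were merged. The submitters' processing notes name mm10. Fragment lengths were not analysed here.

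From the deposited estimated counts, genome-matched and unmatched rows were added, internal reads were taken as the total minus the ends, and levels were expressed as RPM of clean reads. Counts were rounded, filtered with filterByExpr, and tested in 1 fit of 814 features with edgeR 4.0.16 (R 4.3.3, TMM, quasi-likelihood, Benjamini-Hochberg). Levels and shares of all 51 nuclear anticodons were compared by exact permutation tests. DESeq2 1.42.0 and other settings were alternatives. Every pair of libraries differed by more than sampling noise (chi-square per degree of freedom of at least 508). The fit was tested on simulated counts of 814 features, where 195 of 196 features with a log2 change of 2 were recovered and 4 unchanged ones were called. In simulated counts without any change 6 features were called, and 0 had an adjusted p under 0.05 (edgeR). Smaller changes, such as those of the 4 tRNAs, were not simulated, so their recovery is not known. The tRNAs, lists and alternatives were chosen with earlier results of these data known. All 16 features of the 4 tRNAs are named, and the features most like a 5′ end are the first 3 by Pearson's r among those with a mean of at least 10 RPM. Intervals are Wilson 95% intervals of the rounded reads.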

Additional observations from a re-analysis of the deposited data

Results flagged for a closer look

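Among 48 sets of 5 samples examined for a sample far from the rest (the level of each feature, the level of each tRNA and its 5′ end share, in each group), 2 had one, and Dixon's criterion at 95% marks about 5% of sets by chance. The 5′ end share of tRNA-Gln-CTG in HFD-F0 replicate 1 was 19.0%, while the next HFD-F0 sample had 37.6%, a gap of 0.744 of the range of the group. For tRNA-Gln-TTG the share in the same library was 20.0% and the next 37.3%, a gap of 0.860 of the range. These tRNAs can share reads that were divided between them, so the 2 shares are not independent. The same library had the lowest value of its group for 28 of 49 nuclear tRNA 5′ ends and for 39 of 48 CCA ends.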

How the results depend on the processing

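The count of tRNA-Glu and tRNA-Gln features past the study's thresholds was 1, the CCA end of tRNA-Glu-CTC, under DESeq2, edgeR's exact test, clean reads as library size, no filter, a minimum of 10 counts in each sample, tsRNA features only, genome-matched reads only and without each sample in turn (1 to 1), and it became 2 with both replicates 1 left out, where the 5′ end of tRNA-Glu-CTC was added. The labels do not say whether same-numbered samples belong together. The correlations of same-numbered deviations were 0.336, -0.0873, 0.246, -0.191 and -0.137, mixed in sign and largest for the replicates 1. CD-F0 replicate 1 and HFD-F0 replicate 1 also differed less from each other than from any other library, with a chi-square per degree of freedom of 1564. Whether they share a batch was not tested. With the number as a replicate block the count was again 1 and no call changed. The log2 fold change of that CCA end ran from 1.16 to 1.55 without 1 sample. The log2 fold changes that changed sign were close to 0 in the values reported. These were tRNA-Glu-CTC internal (-0.076 with tsRNA features only; -0.10 to 0.26 without 1 sample), tRNA-Glu-TTC 3′ end (-0.11 without both replicates 1; -0.35 to 0.41), tRNA-Glu-TTC internal (0.057 without both replicates 1; -0.21 to 0.022), tRNA-Gln-CTG 3′ end (-0.034 with tsRNA features only, -0.041 with the block; -0.17 to 0.25), tRNA-Gln-CTG internal (0.0031 with clean reads as library size), tRNA-Gln-TTG 5′ end (0.028 without both replicates 1; -0.24 to 0.038) and tRNA-Gln-TTG internal (0.019 with clean reads as library size). Without 1 sample the ratio of levels ran from 1.36 to 1.95 for tRNA-Glu-CTC and 1.14 to 1.38 for tRNA-Glu-TTC, both highest without HFD-F0 replicate 1, from 0.934 to 1.01 for tRNA-Gln-CTG and from 0.953 to 1.03 for tRNA-Gln-TTG, which was 0.994 over annotated reads and 0.9996 on the log2 scale. The difference in 5′ end share ran from 2.36 to 22.3 percentage points for tRNA-Glu-CTC, 6.12 to 16.4 for tRNA-Glu-TTC, -3.41 to 2.84 for tRNA-Gln-CTG and -2.43 to 3.11 for tRNA-Gln-TTG. Over 5′, 3′ and CCA end reads alone it was -0.0787 points for tRNA-Glu-CTC and -0.975 for tRNA-Gln-CTG (unadjusted p = 0.0159, exact permutation test). The cause of these changes was not tested. Using clean reads as library size moved the median log2 fold change of all features by 0.09. Depth limits the tRNA-Gln 3′ ends, with at most 53 reads in a sample.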
